A study of Mus musculus with 8 samples.

Results

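The genes described here are 9 genes linked to the naive, resting state of T cells: Klf2, Foxo1, Dapl1, Satb1, Tcf7, Lef1, Ly6c1, Igfbp4 and Bach2. They were chosen with earlier results of these data known. Their probes were taken by name, as every probe to which the platform annotation gives one of these symbols. Named probes were found for 7 of the 9 genes, and the expression of Tcf7 and Bach2 is not analysed here. The 7 genes had 9 probes of the 25697 on the array, with 2 each for Lef1 and Igfbp4. All 9 probes passed the detection filter, so that the 7 genes were tested among 7926 genes in all.

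A T cell that has not met its antigen stays small and out of the cell cycle, and it moves between blood and lymph nodes. This state is kept by a set of transcription factors. FOXO1 holds resting T cells in survival and recirculation, and is put out of the nucleus when the AKT kinase is active. KLF2 drives genes for exit from lymphoid tissue and for quiescence. TCF1 (the product of Tcf7) and LEF1 are related DNA-binding partners of beta-catenin that serve T cell development and naive identity, SATB1 organizes chromatin in developing and mature T cells, and BACH2 restrains effector programmes. Dapl1, Ly6c1 and Igfbp4 were taken here as transcripts of resting or naive T cells of the mouse. Whether they mark such cells alone was not tested.

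RNA was measured on one-colour arrays from CD4+ T cells of C57BL/6 mice reconstituted with mixed bone marrow. B6.CD45.1 recipients were irradiated with 1200 rads in a split dose and received marrow of a NIKtg/CD4Cre/foxp3RFP donor and of a B6.Thy1.1/Foxp3RFP donor, and cells were taken more than 8 weeks later. The NIKtg allele holds Map3k14, the gene of the kinase NIK that starts noncanonical NF-kB signalling, at the ROSA26 locus, and Cre is expressed from the CD4 promoter, which acts in all T cells that pass through the CD4+CD8+ stage. Both donors carried the red reporter of Foxp3, the factor that defines regulatory T cells (Treg). WT Treg were sorted as RFP+Thy1.1+CD4+GFP-, NIKtg Treg as RFP+Thy1.1-CD4+GFP+, WT conventional cells (WT Tconv) as RFP-Thy1.1+CD4+GFP-, and NIKtg Tconv as RFP-Thy1.1-CD4+GFP+, with 2 arrays in each group. GFP, Cre and the Thy1 allele differ along with NIK and cannot be told apart from it, and "NIK effect" below stands for the difference between NIKtg and WT arrays. The labels give neither the tissue nor the age or number of animals, and no label ties the replicates to different animals. The p-values therefore rest on the spread between these arrays alone, which may be technical. In sorted bulk RNA, fewer cells of a kind and less RNA per cell cannot be told apart.

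Each array detected between 9826 and 10794 probes (detection p under 0.01), and mean unnormalized intensity ran from 461.1 to 776.8, with both NIKtg Treg arrays lowest. Foxp3 separated the sorts, with log2 intensities between 13.22 and 13.59 on the 4 Treg arrays and between 6.11 and 8.86 on the 4 Tconv arrays. It was lower in NIKtg Tconv (6.11 and 7.06) than in WT Tconv (8.10 and 8.86), with a log2 difference of -1.89 (adjusted p = 0.00604). The labelled target, Map3k14, showed no rise with NIKtg: its log2 difference was 0.09 between the Treg groups (adjusted p = 0.578) and -0.52 between the Tconv groups (adjusted p = 0.0105), and where in the transcript its 1 probe lies was not known here. The Tconv call for Map3k14 was lost on leaving out any one Tconv array except WT Tconv 2 (adjusted p between 0.0502 and 0.0627). Nfkb2, whose p100 product NIK acts on, rose in both subsets, with 1.01 for Treg (adjusted p = 0.00216) and 1.45 for Tconv (adjusted p = 0.000333).

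The stretch of 250 bases before the transcription start was read for these genes from RefSeq (assembly GRCm38.p6), which matched all 9, Tcf7 and Bach2 included, and gave 18 windows because some have several starts. Of 5 motifs searched on both strands, the FOXO motif GTAAACA lay in the windows of 1 of the 9 genes, and in 3.17% of the windows of the same length over all annotated starts (n = 32851). The KLF motif CACCC lay in windows of 6 genes (52.0% of all windows), the TCF and LEF motif CTTTGA in those of 2 (13.8%), the NF-kB motif GGGANNNNCC in those of 3 (17.6%), and the AP-1 and BACH motif TGAGTCA in those of 0 (4.46%). The counts are of genes with a match in any of their windows, and the percentages are of single windows. A gene with several windows has more places for a match, so counts and percentages are not on the same scale. No motif overlapped another in these windows. A match describes letters in a window and is no evidence of binding. Windows are shown for Klf2 and Dapl1, the genes that rose in NIKtg Treg, and for Ly6c1 and Igfbp4, which fell most in NIKtg Tconv. The sequences run 5′ to 3′ on the gene's strand and end at the base before the start site, and capitals mark the motif match.
Klf2: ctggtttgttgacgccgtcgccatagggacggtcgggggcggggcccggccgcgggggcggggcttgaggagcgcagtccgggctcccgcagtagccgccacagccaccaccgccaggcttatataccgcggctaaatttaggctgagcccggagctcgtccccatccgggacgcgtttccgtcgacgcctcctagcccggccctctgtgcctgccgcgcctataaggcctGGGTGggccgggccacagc
Dapl1: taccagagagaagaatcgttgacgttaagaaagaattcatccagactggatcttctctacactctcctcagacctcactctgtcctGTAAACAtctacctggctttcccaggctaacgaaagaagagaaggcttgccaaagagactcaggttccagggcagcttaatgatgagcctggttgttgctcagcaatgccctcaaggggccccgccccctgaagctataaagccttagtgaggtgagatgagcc
Ly6c1: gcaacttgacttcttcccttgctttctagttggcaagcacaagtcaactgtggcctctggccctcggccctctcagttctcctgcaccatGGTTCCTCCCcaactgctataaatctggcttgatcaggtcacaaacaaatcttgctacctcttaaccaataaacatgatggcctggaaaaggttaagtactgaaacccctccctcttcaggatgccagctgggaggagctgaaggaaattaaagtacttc
Igfbp4: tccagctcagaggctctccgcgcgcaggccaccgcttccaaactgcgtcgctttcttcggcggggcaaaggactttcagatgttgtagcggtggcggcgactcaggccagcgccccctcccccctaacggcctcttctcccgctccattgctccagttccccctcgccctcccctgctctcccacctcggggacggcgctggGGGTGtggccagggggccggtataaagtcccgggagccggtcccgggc
The Klf2 window is chr8:72318812-72319061 on the plus strand, with a KLF match beginning at position -19 from the start site. The Dapl1 window is chr2:59484403-59484652 on the plus strand, and its match, at -164, is the FOXO motif. The Ly6c1 window is chr15:75048838-75049087 on the minus strand and belongs to the more upstream of 2 annotated starts. Its NF-kB match lies at -160. The Igfbp4 window is chr11:99040994-99041243 on the plus strand, with a KLF match at -48.

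All 7 genes were brightest in WT Tconv. For each of them both WT Tconv arrays lay above all 6 arrays of the other groups, which held for 12.1% of the 7926 genes tested. The 7 genes were chosen with earlier results of these data known, so such shares describe them and are no independent test. Which group was dimmest differed between the genes, as the values on each array show. These are log2 intensities after background correction and quantile normalization, and levels of different genes are not compared, since each probe has its own scale.

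Foxo1 encodes the forkhead factor FOXO1. Its log2 intensities were 10.44 and 10.14 on the WT Treg arrays, 10.26 and 10.34 on those of NIKtg Treg, 10.81 and 10.63 on those of WT Tconv, and 9.28 and 9.47 on those of NIKtg Tconv. The NIKtg Tconv arrays lay below the other 6, and the Treg groups, in between, overlapped. Klf2, the gene of the zinc finger factor KLF2, gave 12.20 and 12.09 on the WT Treg arrays, 12.77 and 12.83 on those of NIKtg Treg, 13.33 and 13.34 on those of WT Tconv, and 12.60 and 12.74 on those of NIKtg Tconv. WT Treg was lowest and WT Tconv highest, while the NIKtg groups lay between them and close to each other.

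Satb1, the chromatin organizer, gave 12.77 and 12.19 on the WT Treg arrays, 13.27 and 13.23 on those of NIKtg Treg, 14.43 and 14.44 on those of WT Tconv, and 11.61 and 12.99 on those of NIKtg Tconv. The NIKtg Tconv arrays lay far apart and enclosed both WT Treg arrays, so these groups have no order. Lef1 gave 8.33 and 7.74 on the WT Treg arrays, 7.88 and 8.44 on those of NIKtg Treg, 9.94 and 9.76 on those of WT Tconv, and 8.69 and 9.14 on those of NIKtg Tconv. Both Tconv groups lay above both Treg groups, and the Treg groups overlapped. The dimmer Lef1 probe gave 6.31 and 5.96, 5.60 and 5.98, 7.43 and 7.22, and 6.55 and 6.85 in the same order of groups, and was not well above background on 1 array, NIKtg Treg 1. It kept the same order between Tconv and Treg.

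Dapl1 gave 7.15 and 7.13 on the WT Treg arrays, 8.56 and 8.23 on those of NIKtg Treg, 10.58 and 10.64 on those of WT Tconv, and 9.48 and 9.91 on those of NIKtg Tconv. The 4 groups did not overlap, and NIKtg arrays lay between the WT groups in both subsets. Ly6c1 encodes a lipid-anchored surface protein of the Ly6C family. It gave 10.73 and 10.19 on the WT Treg arrays, 11.33 and 11.08 on those of NIKtg Treg, 11.58 and 11.98 on those of WT Tconv, and 8.85 and 9.41 on those of NIKtg Tconv, without overlap between groups, and NIKtg Tconv was lowest. The Ly6c1 value is uncertain in 1 respect: the neighbouring gene Ly6c2 is a near copy, and the probe's sequence was not used here, so the probe may read both.

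Igfbp4 encodes a secreted protein that binds insulin-like growth factors. It gave 10.48 and 9.79 on the WT Treg arrays, 10.37 and 10.29 on those of NIKtg Treg, 13.14 and 13.00 on those of WT Tconv, and 9.27 and 10.59 on those of NIKtg Tconv. WT Tconv stood alone, and the other 3 groups overlapped. The other Igfbp4 probe gave 10.33 and 9.66, 10.15 and 10.21, 13.33 and 13.19, and 9.04 and 10.46 in the same order of groups, with the same gap.

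**Figure D1:**
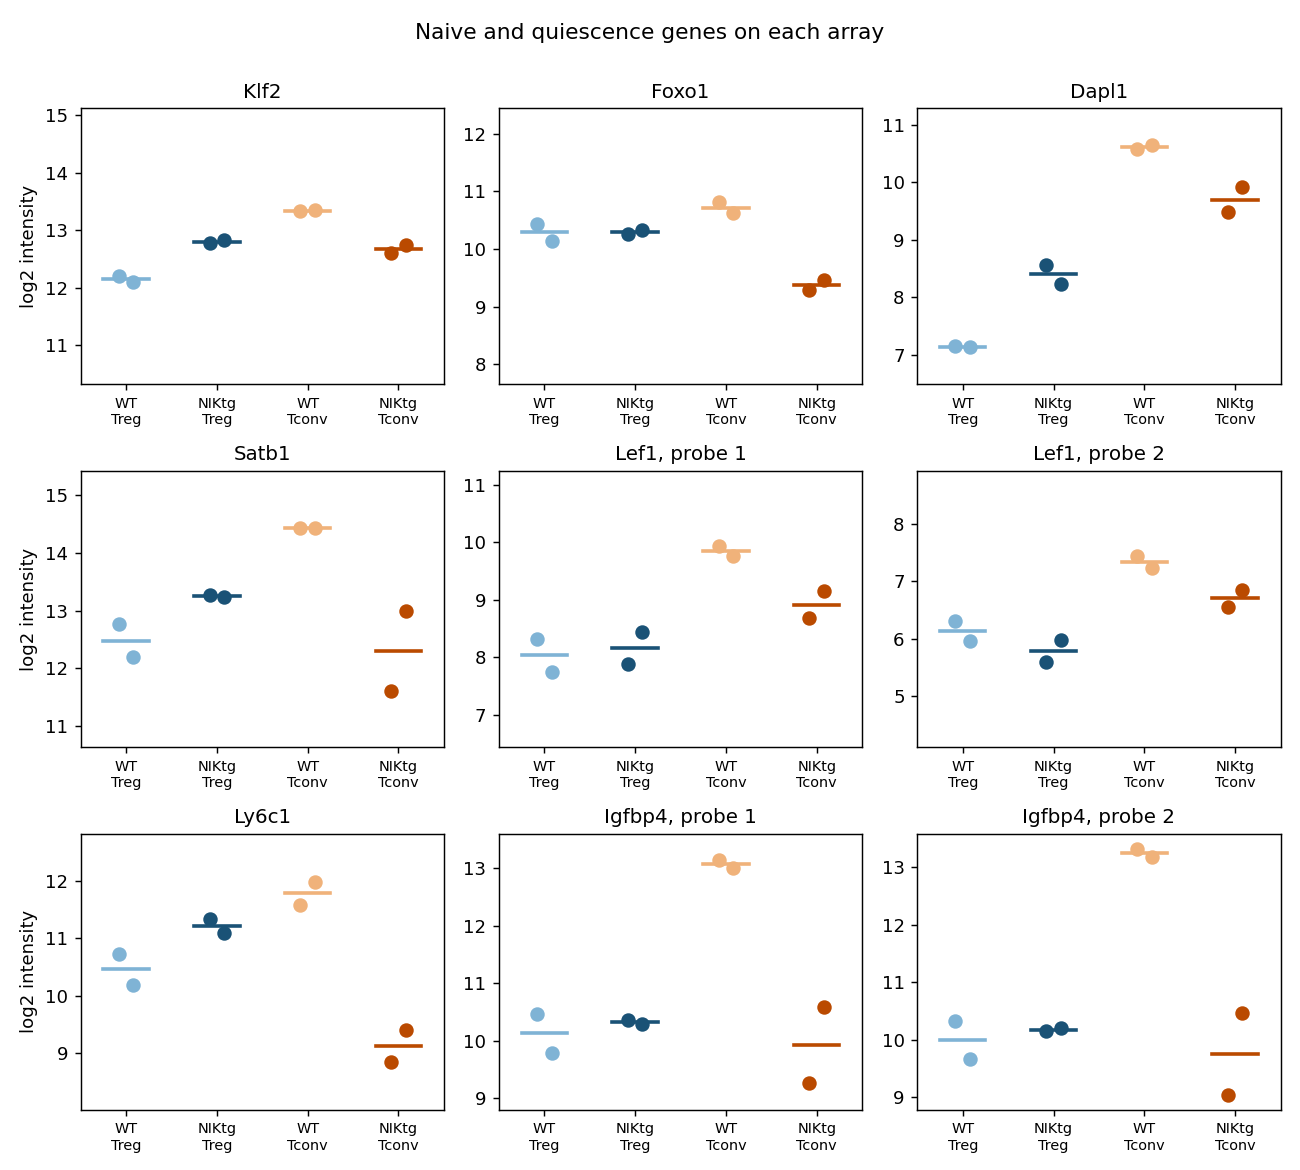
Log2 intensity (y axis) of each probe of the naive and quiescence genes in the 4 groups (x axis). Points are arrays, 2 in each group, and lines are group means. In every panel the WT Tconv arrays lie above the other 6, and the NIKtg Tconv arrays of Satb1 (11.61 and 12.99) and Igfbp4 (9.27 and 10.59) lie far apart.

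Within 2 of the groups, the replicate arrays differed the same way for all of these genes. On NIKtg Tconv 1, 7 of 7 were lower than on NIKtg Tconv 2, against 51.4% of the 7926 genes. On WT Treg 1, 7 of 7 were higher than on WT Treg 2, while 51% of all genes were lower on WT Treg 1. The gaps were small for Klf2 and Dapl1 in WT Treg and widest for Satb1 and Igfbp4 in NIKtg Tconv.

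NIKtg and WT Tconv were compared to ask how RNA of the resting programme differed between these groups of conventional T cells. All 7 genes fell in NIKtg Tconv, with adjusted p under 0.05, where 17.2% of the 7926 genes fell and 30% changed in either direction. The transcription factor genes fell by 1.35 (Foxo1, SE 0.14, 95% confidence interval -1.67 to -1.02, adjusted p = 0.000815) and by 0.67 (Klf2, SE 0.10, interval -0.91 to -0.43, adjusted p = 0.00355) on the log2 scale. Satb1 was 4.4-fold lower (log2 difference -2.14, SE 0.40, adjusted p = 0.00765), and Lef1 1.91-fold lower (-0.93, SE 0.26, adjusted p = 0.0338). Igfbp4 and Ly6c1 fell most: Igfbp4 8.83-fold (-3.14, SE 0.40, adjusted p = 0.00173) and Ly6c1 6.28-fold (-2.65, SE 0.25, adjusted p = 0.000625). Dapl1 fell 1.88-fold (-0.91, SE 0.17, adjusted p = 0.00708).

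Among the falls of all 7926 genes, Igfbp4 ranked 6, Ly6c1 19 and Satb1 49, while Foxo1 ranked 186, Lef1 388, Dapl1 409 and Klf2 703. The median over the 7 genes was -1.35, against -0.08 over all genes. The other Igfbp4 probe gave -3.51 (adjusted p = 0.00165) and the dimmer Lef1 probe -0.62 (adjusted p = 0.0435), in a fit with every probe as its own feature. The Lef1 call was lost on leaving out any of the 4 Tconv arrays: its adjusted p was 0.15 without WT Tconv 1, 0.0715 without WT Tconv 2, 0.191 without NIKtg Tconv 1 and 0.051 without NIKtg Tconv 2. It was also lost with no detection filter (adjusted p = 0.0624). For Igfbp4 and Satb1, whose NIKtg Tconv arrays differed most, the fall without NIKtg Tconv 1 was -2.48 (adjusted p = 0.0062) and -1.45 (adjusted p = 0.0164).

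NIKtg and WT Treg were compared for the same question in regulatory T cells. Here 2 of the 7 genes rose and 0 fell, against 10.3% of all genes that rose and 9.37% that fell. The scaling sets that balance: of the genes called, 52.3% were higher in NIKtg Treg here and 8.19% with arrays centred on their medians, while the share went from 42.8% to 68% for NIKtg against WT Tconv, from 59% to 14.8% for the difference of the effects and from 57.8% to 10.5% for NIKtg Treg against NIKtg Tconv. Dapl1 was 2.39-fold higher (log2 difference 1.26, SE 0.17, interval 0.87 to 1.65, adjusted p = 0.00381), rank 80 among the rises of 7926 genes. Klf2 was 1.57-fold higher (0.65, SE 0.10, interval 0.41 to 0.89, adjusted p = 0.00688). Satb1 (0.77, SE 0.40, interval -0.16 to 1.70, adjusted p = 0.205) and Ly6c1 (0.75, SE 0.25, interval 0.16 to 1.33, adjusted p = 0.0763) had both NIKtg arrays above both WT arrays and did not pass. That separation, in either direction, held for 65.9% of all genes. Of 19 alternative settings, Ly6c1 passed in 4 and Satb1 in 2.

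For Foxo1, Lef1 and Igfbp4 the Treg groups overlapped. The log2 difference was 0.01 for Foxo1 (interval -0.32 to 0.33, adjusted p = 0.973), 0.12 for Lef1 (interval -0.49 to 0.74, adjusted p = 0.764) and 0.20 for Igfbp4 (interval -0.74 to 1.13, adjusted p = 0.757). With median centring in place of quantile normalization these 3 values turned negative, and the difference of Klf2 was 0.46 (adjusted p = 0.112). The Klf2 call was also lost without WT Treg 2 (0.60, adjusted p = 0.0512), while that of Dapl1 passed under all 19 alternative settings (adjusted p up to 0.031).

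**Figure D2:**
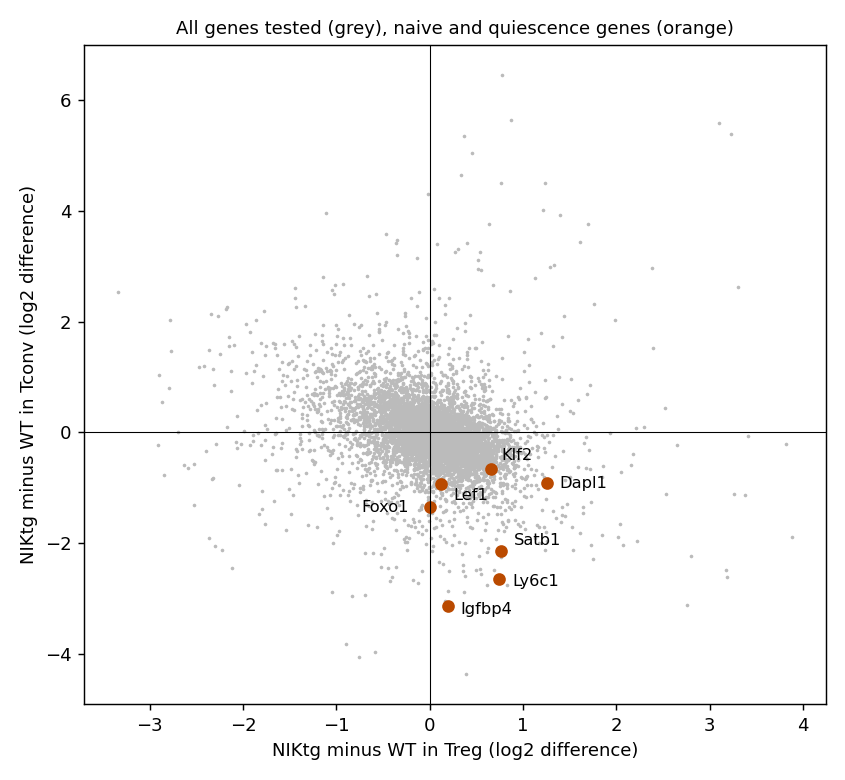
NIK effect in Treg (x axis) against that in Tconv (y axis), both as log2 differences between NIKtg and WT arrays, for 7926 genes (grey points) and the 7 naive and quiescence genes (orange points with names). All 7 lie below 0 on the y axis, from -0.67 (Klf2) to -3.14 (Igfbp4), and at 0.01 or above on the x axis.

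The NIK effect differed between the subsets for 6 of the 7 genes, each higher in Treg, where 23% of all genes differed in that direction, 16% in the other and 39% in either. The difference between the effects, Treg minus Tconv, was 3.40 for Ly6c1 (SE 0.36, adjusted p = 0.000861), 3.34 for Igfbp4 (SE 0.57, adjusted p = 0.00433) and 2.91 for Satb1 (SE 0.56, adjusted p = 0.00727). It was 2.17 for Dapl1 (SE 0.24, adjusted p = 0.00095), 1.35 for Foxo1 (SE 0.20, adjusted p = 0.00257) and 1.32 for Klf2 (SE 0.15, adjusted p = 0.000968). For Klf2 and Dapl1 the effects had opposite signs and passed in each subset. For Foxo1 the effect was 0.01 in Treg and -1.35 in Tconv. Lef1 gave 1.06 (SE 0.37, interval 0.19 to 1.92, adjusted p = 0.0568), which missed the threshold, and its dimmer probe 0.28 (adjusted p = 0.435). The brighter probe passed in 6 of 18 alternatives, with an adjusted p down to 0.00982.

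The WT subsets were set against each other as the reference for the NIKtg cells. Here 6 of the 7 genes were lower in Treg, against 12.8% of all genes that were lower, 11.1% higher and 23.9% changed either way. Dapl1 was 11.1-fold lower (log2 difference -3.47, SE 0.17, adjusted p = 3.11e-05), rank 8 among the genes lower in WT Treg. Igfbp4 was 7.66-fold lower (-2.94, SE 0.40, adjusted p = 0.00219), Satb1 3.89-fold (-1.96, SE 0.40, adjusted p = 0.0121) and Lef1 3.52-fold (-1.82, SE 0.26, adjusted p = 0.00286). Ly6c1 was 2.5-fold lower (-1.32, SE 0.25, adjusted p = 0.00918) and Klf2 2.29-fold (-1.19, SE 0.10, adjusted p = 0.000282). Foxo1 gave -0.43 (SE 0.14, interval -0.75 to -0.10, adjusted p = 0.0638), and passed in 5 of 19 alternatives. The calls of Satb1 and Ly6c1 were lost without WT Treg 2 (adjusted p = 0.0786 and 0.0594), and that of Satb1 without WT Tconv 1 (adjusted p = 0.0602) or with a trended, robust fit (adjusted p = 0.055).

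NIKtg Treg and NIKtg Tconv gave another picture, with members on both sides. Foxo1 was 1.9-fold higher in NIKtg Treg (log2 difference 0.93, SE 0.14, adjusted p = 0.00216) and Ly6c1 4.22-fold higher (2.08, SE 0.25, adjusted p = 0.000866), while Dapl1 was 2.46-fold lower (-1.30, SE 0.17, adjusted p = 0.00111). Thus 2 genes were higher and 1 lower, against 23% and 16.8% of all genes, and 39.8% in either direction. Satb1 (0.95, adjusted p = 0.0952), Lef1 (-0.76, adjusted p = 0.0537), Igfbp4 (0.40, adjusted p = 0.455) and Klf2 (0.13, interval -0.11 to 0.37, adjusted p = 0.345) did not pass. Lef1 passed in 10 of 19 alternatives, and its dimmer probe passed as well (-0.92, adjusted p = 0.00757). Without NIKtg Tconv 2, 5 of the 7 passed, among them Satb1 (1.64, adjusted p = 0.0054) and Igfbp4 (1.06, adjusted p = 0.0351), and with median centring Foxo1 did not pass (0.37, adjusted p = 0.147). The comparisons share groups, so the values of a gene across them are not independent.

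**Figure D3:**
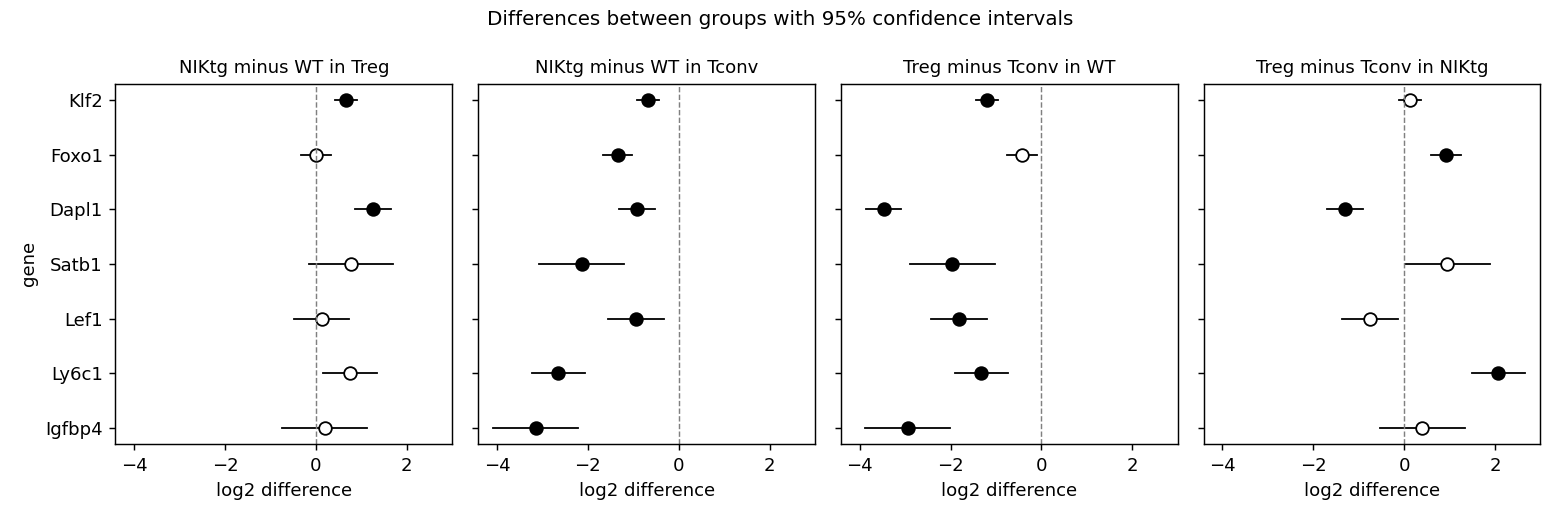
Log2 differences (x axis) of the 7 genes (y axis) in 4 comparisons, with 95% confidence intervals from the moderated fit. Filled points have an adjusted p under 0.05. In NIKtg against WT Tconv all 7 points are filled and below 0. In NIKtg against WT Treg the points of Klf2 (0.65) and Dapl1 (1.26) are filled.

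The 7 genes did not vary as one block over the 8 arrays. Pearson r between them ran from 0.0145 (Foxo1 and Dapl1) to 0.941 (Foxo1 and Ly6c1, and Satb1 and Igfbp4), as a description over 8 arrays that share 4 groups. Dapl1 and Lef1 gave 0.888, Klf2 and Dapl1 0.886, and Klf2 and Lef1 0.827. Foxo1 and Ly6c1 were lowest in NIKtg Tconv, Dapl1 and Klf2 were lowest in WT Treg, and Lef1 was low in both Treg groups.

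The genes most like each of them over the 8 arrays were taken from 1581 genes whose group means spanned at least 1 on the log2 scale. Igfbp4 was closest to Snn (r = 0.9966), Actn1, an actin crosslinker (r = 0.9904), and Mfge8 (r = 0.9766). Klf2 was closest to Hdc (r = 0.9866), Rtn4rl1 (r = 0.9865) and the kinase gene Prkd3 (r = 0.9832). Satb1 was closest to Galnt10 (r = 0.9688), Pdk1 (r = 0.9626) and Ccr7 (r = 0.9612). Lef1 was closest to Trim36 (r = 0.9853), Dapl1 to H2bc18 (r = 0.9848), and Ly6c1 to Cyp2d22 (r = 0.9835). Foxo1 was closest to Dusp7 (r = 0.9699), Sqor (r = 0.9689) and Cd8b1 (r = 0.965).

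Other genes of the resting programme, and genes of effector cells and of proliferation, were followed in 6 lists that leave out these 7 genes. Several lists share members. Their counts stand against 17.2% of all genes that fell and 12.8% that rose in NIKtg Tconv (median -0.08), and 9.37% and 10.3% in NIKtg Treg (median 0.06). Of 13 tested genes of naive cell homing and survival, 10 fell and 0 rose in NIKtg Tconv, with a median of -0.91. Ccr7, the receptor that brings naive cells into lymph nodes, gave 12.18 and 11.86 on the WT Tconv arrays against 9.74 and 10.45 on the NIKtg Tconv arrays. It fell by 1.93 there (SE 0.24, adjusted p = 0.00154) and gave 0.71 (SE 0.24, adjusted p = 0.0747) in Treg. Pecam1, an adhesion molecule of resting T cells, fell by 1.35 in Tconv (SE 0.12, adjusted p = 0.000564) and Nsg2 by 0.77 (SE 0.12, adjusted p = 0.00319).

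In Treg, 5 of these 13 rose and 2 fell, with a median of 0.32 against 0.06 over all genes. Nsg2 rose by 0.81 (SE 0.12, adjusted p = 0.00487), and Pecam1 by 0.72 on its brighter probe (adjusted p = 0.00931), while its dimmer probe gave -0.28 (adjusted p = 0.327). Il6ra, a chain of the interleukin 6 receptor, went the other way and fell in both subsets, by 1.76 in Treg (SE 0.27, adjusted p = 0.00669) and by 1.66 in Tconv (SE 0.27, adjusted p = 0.00451). Without WT Treg 1, WT Treg 2 or NIKtg Treg 1 the count called in Treg was 3, 3 and 4 instead of 7. With median centring 0 rose and 2 fell in Treg, while 8 fell in Tconv. Pecam1 was not called without WT Treg 2 (adjusted p = 0.0622).

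Genes listed as FOXO1 and KLF2 targets were followed next. Whether these factors drive each of them in these cells was not tested. Of 14 tested, 7 fell and 1 rose in NIKtg Tconv, with a median of -0.51, and 3 rose and 0 fell in NIKtg Treg, with a median of 0.25. Trib2, a pseudokinase gene, gave 11.49 and 11.17 on the WT Treg arrays, 12.19 and 12.46 on those of NIKtg Treg, 12.55 and 12.29 on those of WT Tconv, and 10.54 and 11.05 on those of NIKtg Tconv. It was 3.08-fold lower in NIKtg Tconv (SE 0.21, adjusted p = 0.0017) and 1.99-fold higher in NIKtg Treg (SE 0.21, adjusted p = 0.0175). The Treg call was lost without WT Treg 2 (adjusted p = 0.0996) or NIKtg Treg 2 (adjusted p = 0.0521). Il7r, the interleukin 7 receptor chain that FOXO1 drives, was not among the 7 that fell in NIKtg Tconv. Its values there were 13.83 and 13.81, against 13.40 and 13.60 in WT Tconv (log2 difference 0.32, SE 0.12, adjusted p = 0.088), and its other probes gave 1.01 (adjusted p = 0.00271) and 0.66 (adjusted p = 0.0249). In Treg it rose by 0.68 (adjusted p = 0.0118), a call lost without WT Treg 1 (adjusted p = 0.0735) or NIKtg Treg 1 (adjusted p = 0.0516). Its other probes gave 0.15 (adjusted p = 0.477) and 0.90 (adjusted p = 0.0121) in Treg.

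The count of these targets called in Treg was 1 without WT Treg 1, WT Treg 2 or NIKtg Treg 1 and 5 without either NIKtg Tconv array, and it was 1, a rise, with median centring. Of 18 tested quiescence and antiproliferative genes, 4 fell and 1 rose in NIKtg Tconv, and 3 rose and 1 fell in NIKtg Treg. Klf13, which restrains lymphocyte growth, fell by 1.09 in Tconv (SE 0.13, adjusted p = 0.00126) and gave 0.36 (adjusted p = 0.0852) in Treg. Txnip, an inhibitor of glucose uptake, fell by 0.78 in Tconv (SE 0.15, adjusted p = 0.00774), a call lost without WT Tconv 1 (adjusted p = 0.0505) or NIKtg Tconv 1 (adjusted p = 0.0567). The shares called in this list, 5 of 18 in Tconv and 4 of 18 in Treg, are near the 30% and 19.7% of all genes. The Treg count was 0, 1 and 0 without WT Treg 1, WT Treg 2 and NIKtg Treg 1, and the Tconv count 3 without WT Tconv 1 or NIKtg Tconv 1. With median centring 0 of the quiescence genes rose and 2 fell in Treg.

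The partners and targets of TCF1 and LEF1 split. Of 11 tested, 6 fell and 3 rose in NIKtg Tconv, and 3 rose and 2 fell in NIKtg Treg. Tle1 and Tle3 encode Groucho corepressors, which bind TCF and LEF factors. Tle1 gave 7.84 and 7.86 on the WT Treg arrays, 8.69 and 8.53 on those of NIKtg Treg, 8.28 and 8.30 on those of WT Tconv, and 5.78 and 6.49 on those of NIKtg Tconv, a fall by 2.16 in Tconv (SE 0.21, adjusted p = 0.000648). Tle3 rose there by 1.32 (SE 0.17, adjusted p = 0.00181), and in NIKtg Treg, where it was not well above background on either array, it was at least 1.15-fold lower. Its other probes gave 0.77 (adjusted p = 0.0518) and 0.73 (adjusted p = 0.0231) in Tconv. In Treg they gave -0.21 (adjusted p = 0.573) and -0.45 (adjusted p = 0.12). Bcl9l, a beta-catenin cofactor gene, fell by 1.11 in Tconv (SE 0.09, adjusted p = 0.000477).

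Tcf7l1, the gene of another TCF family factor, gave 6.28 and 6.08 on the WT Treg arrays, 8.10 and 7.95 on those of NIKtg Treg, 6.39 and 6.25 on those of WT Tconv, and 5.39 and 5.64 on those of NIKtg Tconv, where 1 of the 2 arrays detected it. It rose by 1.85 in Treg (SE 0.13, adjusted p = 0.000679). In Treg, Tle1 gave 0.76 (adjusted p = 0.0433) and Bcl9l 0.38 (adjusted p = 0.0302), and both calls were lost on leaving out any 1 Treg array (adjusted p between 0.0666 and 0.167 for Tle1, and between 0.0794 and 0.151 for Bcl9l). They were also lost without either WT Tconv array for Tle1 (adjusted p = 0.0598) and without either NIKtg Tconv array for Bcl9l (adjusted p = 0.0512). Tle3 was not called in Treg without WT Treg 2 (adjusted p = 0.0707) or NIKtg Treg 1 (adjusted p = 0.0598). The count called in Treg was 1 to 3 instead of 5 on leaving out any Treg or NIKtg Tconv array, and 3 with median centring.

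Effector genes, which naive cells hold low, were followed too. Of 20 tested, 9 rose and 2 fell in NIKtg Tconv (median 0.43), and 9 fell and 1 rose in NIKtg Treg (median -0.60). The other 9 in Tconv and 10 in Treg did not pass. Cxcr3, a chemokine receptor of effector cells, gave 11.54 and 11.78 on the WT Treg arrays, 9.03 and 8.75 on those of NIKtg Treg, 10.39 and 11.05 on those of WT Tconv, and 12.20 and 12.17 on those of NIKtg Tconv. It rose by 1.47 in Tconv (SE 0.22, adjusted p = 0.00301) and fell by 2.77 in Treg (SE 0.22, adjusted p = 0.00091). The chemokine gene Ccl5 rose by 2.82 in Tconv (SE 0.34, adjusted p = 0.00147) and Anxa2, an annexin gene, by 1.77 (SE 0.14, adjusted p = 0.000336). Itgb1, the beta chain of adhesion integrins, fell by 2.07 in Treg (SE 0.14, adjusted p = 0.000553).

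Genes of the cell cycle were followed beside them. Of 14 tested proliferation genes, 6 rose and 1 fell in NIKtg Tconv, and 5 fell and 1 rose in NIKtg Treg. Cdk1, the mitotic kinase gene, gave 7.53 and 7.50 in NIKtg Tconv against 5.49 and 6.03 in WT Tconv, where 1 of the 2 arrays detected it (log2 difference 1.76, SE 0.17, adjusted p = 0.000647). It was at least 1.48-fold lower in NIKtg Treg, where neither array detected it. The topoisomerase gene Top2a rose by 1.39 in Tconv (SE 0.15, adjusted p = 0.000867) and fell by 0.97 in Treg (SE 0.15, adjusted p = 0.00618). In Treg the effector count was 5, 5 and 6 without WT Treg 1, WT Treg 2 and NIKtg Treg 1, and the proliferation count 3 without WT Treg 1 and 2 without WT Treg 2. In Tconv the effector count was 7 without NIKtg Tconv 1.

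**Figure D4:**
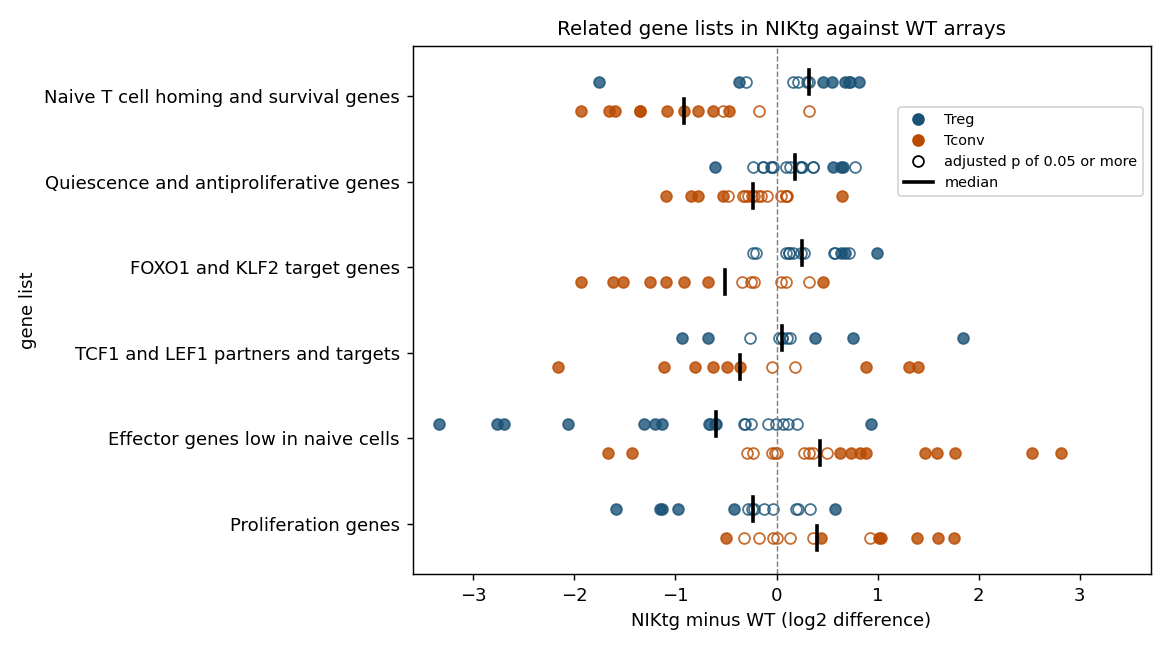
Log2 difference between NIKtg and WT arrays (x axis) for each tested gene of 6 related lists (y axis), in Treg (blue) and Tconv (orange). Filled points have an adjusted p under 0.05, and black bars are list medians. Medians of the homing list lie at 0.32 in Treg and -0.91 in Tconv, and those of the effector list at -0.60 and 0.43.

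The difference of the NIK effects was higher in Treg for 23% of all genes and lower for 16%. It passed for 9 of the 13 homing genes, all 9 higher in Treg, and for 9 higher and 1 lower of the 14 FOXO1 and KLF2 targets. Of the 18 quiescence and antiproliferative genes 8 passed, 7 higher and 1 lower, which is near the 39% of all genes. Among the 11 partners and targets of TCF1 and LEF1, 5 were higher and 4 lower, and 5 were called in all without WT Treg 1, WT Treg 2 or NIKtg Treg 1. With median centring, 5 instead of 10 of the FOXO1 and KLF2 targets were called. It was lower in Treg for 11 of the 20 effector genes and 7 of the 14 proliferation genes, with 1 higher in each. In WT cells, 7 of the 13 homing genes and 6 of the 14 targets were lower in Treg (12.8% of all genes), and in NIKtg cells 7 and 6 were higher in Treg, with 3 lower in each list (23% and 16.8% of all genes).

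Markers of other cells that a sort could hold were followed beside these changes. The 8 CD8 and NK cell markers had a summed intensity of 1780 to 1980 on the Treg arrays, 4070 to 7000 in WT Tconv and 12000 to 15300 in NIKtg Tconv. In NIKtg Tconv the sum was carried by Nkg7 (13.79 and 13.39, against 10.57 and 11.75 in WT Tconv), and Cd8a, Ncr1 and Gzma were not detected on any array. Klrb1c and Klrk1 were detected on the WT Tconv arrays and on no others. Cd8b1, the gene whose pattern lay close to that of Foxo1, gave 10.46 and 10.11 on the WT Tconv arrays against 8.86 and 9.22 on the NIKtg Tconv arrays. Of the 5 tested, 1 rose and 3 fell in NIKtg Tconv. The part of such cells in the changes was not tested. Thymocytes also make Satb1 and Lef1, and their recombinase genes Rag1 and Rag2 were not detected on any array. Dntt and Ptcra were detected on 1 array each, in each case in WT Tconv. There Dntt gave 5.68 and 5.49, against 4.62 to 4.88 on the arrays of the other groups, and Ptcra gave 5.635 and 4.645. Endothelial cells make Ly6c1 and Igfbp4, and Cdh5 and Kdr were not detected on any array. Of the 6 endothelial and stromal markers, Pecam1 was the 1 detected. Of 4 tested myeloid and dendritic cell markers, 3 fell in NIKtg Treg and 3 in NIKtg Tconv. Their summed intensity was 637 to 677 in WT Treg, 436 to 507 in NIKtg Treg, 501 to 546 in WT Tconv and 330 to 384 in NIKtg Tconv, and Itgam, Itgax and Cd14 were detected on no array. Of 3 tested B cell markers, 2 fell in NIKtg Treg, and 1 rose and 2 fell in NIKtg Tconv. The B cell sum was 1010 to 1140 for WT Treg, 665 to 733 for NIKtg Treg, 324 to 350 for WT Tconv and 600 to 726 for NIKtg Tconv, where Cd22 gave 8.92 and 8.58 against 6.01 and 5.88 in WT Tconv. Pax5 was detected on no array, and Cd79a and Ms4a1 on 1 each. Of the 6 Treg markers, 2 fell in NIKtg Treg and 3 in NIKtg Tconv. The 1 tested red cell marker, Hba-a1, fell in NIKtg Treg. The part of these cells in the results was not tested.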

How the data were processed

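RNA of 8 sorted samples was amplified with MessageAmp Premier and hybridized to one-colour Illumina arrays. Per the submitters' processing notes, GenomeStudio 2010.1 was used, and its settings are not given in the sources used here. The values deposited for each probe are intensities before normalization, linear in scale. Per the file headers, each intensity has a detection p-value beside it. A second table deposited by the authors holds intensities normalized by a method not given in the sources used here, and served as an alternative.

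Intensities were background-corrected in limma 3.58.1 (R 4.3.3) with nec, offset 16 and negative controls inferred from the detection p, followed by quantile normalization and log2. A probe was kept where 2 or more arrays detected it at p under 0.01. The platform annotation gave 23978 probes 1 gene symbol, and 1719 probes were not named. No symbol was updated, and 16 had no gene ID to check. The brightest probe stood for a gene. One linear model over all 8 arrays (lmFit, contrasts.fit, eBayes, two-sided) had 4 residual degrees of freedom, with Benjamini-Hochberg adjustment over 7926 genes in each of 5 contrasts and a threshold of 0.05. The number of arrays limits the precision.

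Where neither array of the dimmer group detected a probe, "at least" gives the brighter mean over the higher of the array's lowest detected signal and the probe's own.

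The 9 genes and the lists were chosen with earlier results of these data known. Named list genes are among those with the lowest adjusted p in a comparison (up to 3 per list that passed) or the largest change (up to 1 that did not pass). The alternatives were background correction, normalization, detection filter, choice of probe, fit, replicate block and leaving out each array.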

Additional observations from a re-analysis of the deposited data

Results flagged for a closer look

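The difference between the NIK effects in Treg and in Tconv, tested as an interaction in limma, passed an adjusted p of 0.05 for the genes given here, 2 arrays in each group. Values are log2 differences, the effect in Treg minus that in Tconv. Among the naive and quiescence genes these were Klf2 (1.32), Foxo1 (1.35), Dapl1 (2.17), Satb1 (2.91), Ly6c1 (3.40) and Igfbp4 (3.34), and 39% of all genes passed.

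Homing and survival genes also differed, with 2.64 for Ccr7, 1.59 for Nsg2 and 2.08 for the brighter probe of Pecam1. The dimmer Pecam1 probe gave 0.34 (adjusted p = 0.339). Among quiescence genes and FOXO1 or KLF2 targets the values were 1.45 for Klf13, 1.14 for Txnip and 2.62 for Trib2. In the list of TCF1 and LEF1 partners and targets the values were 2.92 for Tle1, 1.49 for Bcl9l, 2.65 for Tcf7l1 and -2.25 for Tle3. Tcf7l1, itself the gene of a TCF family factor, was not well above background on NIKtg Tconv 1 (5.39). The size of its value is therefore uncertain. The other probes of Tle3 gave -0.98 (adjusted p = 0.0584) and -1.18 (adjusted p = 0.0109).

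Effector genes had the opposite sign, with -3.49 for Ccl5, -1.78 for Itgb1, -1.70 for Anxa2 and -4.24 for Cxcr3. Proliferation genes gave -2.36 for Top2a, -2.90 for Cdk1 and -2.74 for Tyms. Tle3 and Cdk1 were not well above background on either NIKtg Treg array, so their values compare measured intensities and the true size is not known. Of the genes used as checks, Map3k14 gave 0.60 and Foxp3 1.64.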

How the results depend on the processing

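Over 19 alternatives, 603 of the values of the 7 genes kept their direction and their side of the threshold, 12 lost a call, 31 gained one and 12 changed sign. Counts of these genes called stood at 2 in NIKtg against WT Treg, 7 in Tconv, 6 for the difference, 6 in WT Treg against Tconv and 3 in NIKtg. With one array left out at a time they ranged from 1 to 3, 6 to 7, 6 to 7, 4 to 6 and 3 to 5. Median centring gave 1 in Treg, and no background correction or the authors' normalized table gave 5 in NIKtg Treg against Tconv. Median centring moved the median of all genes by -0.34 in the NIK effect in Treg, 0.17 in Tconv and -0.53 in their difference, and the share of higher among called genes in Treg from 52.3% to 8.19%.

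With median centring the NIK effect in Treg was -0.31 for Foxo1, -0.31 for Lef1, -0.12 for Igfbp4, -0.23 for Anxa2 and -0.26 for Map3k14. The NIKtg Treg minus Tconv difference was then -0.27 for Klf2, -0.14 for Igfbp4, -0.022 for Nsg2, -0.015 for Bcl9l, -0.47 for Map3k14 and -0.40 for Nfkb2. Averaging probes gave -0.11 for Lef1 in Treg and -0.087 for Il7r in the difference of effects. On leaving out one array, values in Treg ranged from -0.14 to 0.16 for Foxo1, -0.17 to 0.42 for Lef1, -0.15 to 0.54 for Igfbp4 and -0.090 to 0.23 for Anxa2. Il6ra ranged from -0.47 to 0.27 in the difference of effects, -0.28 to 0.014 in WT and -0.60 to 0.14 in NIKtg cells. Ccl5 ranged from -0.95 to 0.20 in WT, and Igfbp4 from -0.26 to 1.06 in NIKtg cells. The cause of these changes was not tested.

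With the replicate number as a block the counts of the 7 genes were 2, 7, 6, 6 and 3, and that of FOXO1 and KLF2 targets in Treg was 5 instead of 3. Replicate differences correlated between groups at -0.0191 to 0.141. Whether samples with the same replicate number came from the same animals was not tested.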
